A study of Mus musculus and Callithrix jacchus with 22 samples.

Results

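Cells that carried the general name ExNeuron were studied in the neocortex of the common marmoset. The name, which is the authors' own, was read from the deposited table of single-cell chromatin accessibility, and no measured value entered the choice. It was held by 628 of 15919 marmoset cells and by 0 of 19145 mouse cells, so by 628 of the 35064 cells of the series. Of the 628 cells, 271 came from adult and 357 from newborn cortex.

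Pyramidal neurons are the excitatory, glutamate-releasing neurons of the neocortex, and they are divided by layer and by the target of their axon. Callosal neurons (CPN) reach the opposite hemisphere, subcerebral neurons (ScPN) the brainstem and spinal cord, and corticothalamic neurons (CthPN) the thalamus, while layer IV neurons (LayerIV) receive much of the input that the thalamus sends to sensory cortex. General markers such as Neurod2, a transcription factor gene of excitatory neurons, and Slc17a7, the gene of a vesicular glutamate transporter, are shared by these classes and so cannot tell them apart.

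The assay was single-cell ATAC-seq, in which a transposase cuts and tags open DNA and a droplet barcode marks the cell of origin. Wild-type marmosets of 3 labelled ages were sampled: adults labelled Y8 (3 libraries), adults labelled Y7 (2 libraries) and newborns labelled Day0 (5 libraries). The labels name somatosensory cortex, and the study's methods add motor cortex. Papain freed the cells from the tissue and a sort kept the live ones, and the labels also carry a protocol for sorting fluorescent projection neurons, which the study does not describe for these unfractionated samples. Such a sort could set the shares given here, which are shares of recovered cells. Nothing in the labels says that libraries came from separate animals, so every permutation p-value measures the spread between libraries, which may be technical. The chi-square p-values given below take cells as units and cover the sampling of cells only. Each cell had a count of reads and a count of peaks, meaning open regions with a read. No gene-level values were used here, so the name could not be checked against Neurod2 or Slc17a7.

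Each of the 10 marmoset libraries had between 1209 and 1814 cells and between 5139726 and 13441944 reads, with a median of 2557.5 to 7145.5 reads per cell. Each pair of libraries shared 1 to 9 cell barcodes, and none of these was an ExNeuron barcode in both. The newborn libraries fell into sets that stood apart. Libraries 1 and 2 agreed in their cell types within sampling noise (chi-square p = 0.362), whereas each differed from libraries 3, 4 and 5 (p at most 2.91e-71). Some other pairs within a label also differed by the chi-square test: Y7 libraries 1 and 2 (p = 1.89e-05), Y8 libraries 1 and 2 (p = 0.00457) and newborn libraries 3 and 5 (p = 0.0101). The split of newborn libraries 1 and 2 from 3 to 5 was not given in the labels. The ExNeuron shares are also given without libraries 1 and 2. That alternative was chosen after seeing the data, and since it takes away nearly all newborn ExNeuron cells its values are given with no test.

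ExNeuron cells occupied 1 cluster at each age, and both clusters held no other name. The adult cells were all in cluster 28 and the newborn cells all in cluster 18. Clusters had been split by age before they were named, so a comparison between ages sets beside each other 2 clusters that share a name. At adult age the pyramidal neurons had only 3 names, ExNeuron, LayerIV and CthPN, and no cell was called CPN or ScPN. At newborn age all 5 names were in use.

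ExNeuron was the largest pyramidal name in every adult library (level with LayerIV, at 16 cells each, in Y8 library 3) and a sizeable name in only 2 newborn libraries. The adult cells numbered 21, 18 and 16 in Y8 libraries 1, 2 and 3, and 135 and 81 in Y7 libraries 1 and 2. The newborn cells numbered 168, 188, 0, 1 and 0 in libraries 1 to 5. Libraries 1 and 2 thus held 356 of the 357 newborn ExNeuron cells (99.7%), although they held only 35.7% of newborn pyramidal neurons.

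As a share of pyramidal neurons, ExNeuron made up 48.8% (95% Wilson interval 34.6 to 63.2), 48.6% (33.4 to 64.1) and 47.1% (31.5 to 63.3) in the Y8 libraries. The share was 52.7% (46.6 to 58.8) and 59.6% (51.2 to 67.4) in the Y7 libraries. In newborn libraries 1 and 2 it was 29.1% (25.6 to 33.0) and 31.4% (27.8 to 35.2). In library 4 it was 0.140% (0.0247 to 0.787), and in libraries 3 and 5 it was 0%, for which a limit of 3 counts of the total, in place of the Wilson interval, allows a share of up to 0.389% and 0.476%. These intervals and limits cover counting error only. All adult libraries lay above all newborn libraries, with the adult values close together and the newborn values in separate sets.

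The mean share of pyramidal neurons was 51.4% ± 5.03 in adult and 12.1% ± 16.6 in newborn libraries (SD, n = 5 each), a difference of 39.2 percentage points. The exact two-sided permutation test over libraries gave p = 0.00794, the smallest it could give, and an adjusted p of 0.0159 over the 4 denominators tested. With libraries linked by agreement in their cell types averaged, an alternative chosen after seeing the data, the difference was 38.3 points with an adjusted p of 0.4 in the exact permutation test. That design had 3 adult and 2 newborn units and could not pass the threshold. Libraries that differed from each other could still be linked through another library. Without newborn libraries 1 and 2 the difference was 51.3 points.

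**Figure D1:**
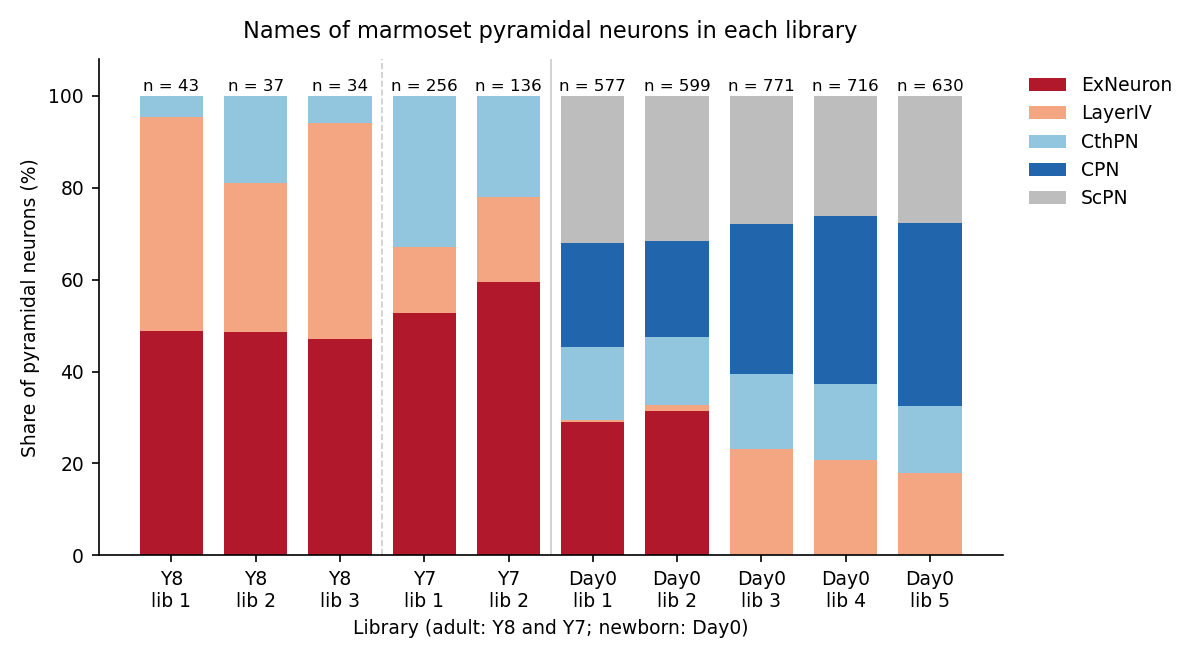
Stacked bars give the percentage of pyramidal neurons with each of the 5 names in every marmoset library, with the number of pyramidal neurons above each bar, adult libraries (Y8, Y7) left of newborn libraries (Day0). ExNeuron fills 47.1% to 59.6% of each adult bar, 29.1% and 31.4% of newborn bars 1 and 2, and at most 0.140% of newborn bars 3 to 5.

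The denominator decided what the age comparison showed. Among all neurons, interneurons included, ExNeuron averaged 26.1% ± 7.19 in adult and 6.38% ± 8.72 in newborn libraries, 19.7 points apart (adjusted p = 0.0159 in the exact permutation test, n = 5 libraries each), and 26.1 points apart without newborn libraries 1 and 2. Among all annotated cells it averaged 3.70% ± 3.51 in adult and 4.42% ± 6.03 in newborn libraries, -0.71 points apart (adjusted p = 0.770 in the exact permutation test, n = 5 each), and glia made up most of the cells in the adult libraries. Per library this last share was 1.34%, 1.096% and 1.09% in Y8 and 8.30% and 6.70% in Y7, against 10.4%, 11.6%, 0%, 0.0578% and 0% in newborn libraries. The ExNeuron share of annotated cells was thus highest in the Y7 libraries and newborn libraries 1 and 2. The neurons recovered differed too. Neurons made up 6.62%, 4.44% and 5.81% of cells in Y8 and 23.2% and 21.6% in Y7, against 68.7% to 74.5% in newborn libraries. The part of this in the ExNeuron share was not tested. Without newborn libraries 1 and 2, the difference in the ExNeuron share of annotated cells was 3.69 points, of the opposite sign.

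CPN and ScPN had no adult cells and could not take a share of the adult total. When only the 3 names used at both ages were counted, ExNeuron averaged 51.4% ± 5.03 in adult and 26.1% ± 35.6 in newborn libraries, 25.2 points apart (adjusted p = 0.222 in the exact permutation test, n = 5 each). The newborn values were 64.1%, 66.2%, 0%, 0.375% and 0%, so libraries 1 and 2 lay above every adult library and the other 3 below. Without libraries 1 and 2 the difference was 51.2 points.

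Among newborn libraries, the ExNeuron and LayerIV names were almost mutually exclusive. ExNeuron had 168 and 188 cells in newborn libraries 1 and 2, where LayerIV had 2 and 8, and ExNeuron had 0, 1 and 0 cells in libraries 3, 4 and 5, where LayerIV had 178, 147 and 113. Libraries 3 to 5 held 438 of the 448 newborn LayerIV cells (97.8%). CPN was also lower in libraries 1 and 2, with 22.5% and 21.04% of pyramidal neurons, than in libraries 3 to 5, with 32.7%, 36.6% and 39.7%. ScPN and CthPN were spread much as pyramidal neurons as a whole were: libraries 1 and 2 held 39.3% of newborn ScPN cells and 34.8% of newborn CthPN cells.

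Counted as 1 name, ExNeuron and LayerIV made up 29.5%, 32.7%, 23.1%, 20.7% and 17.9% of pyramidal neurons in newborn libraries 1 to 5. Libraries 1 and 2 were still the highest. With CPN added, the shares were 52.0%, 53.8%, 55.8%, 57.3% and 57.6%, a range far narrower than that of any of the 3 names. These shares are all that ScPN and CthPN left, so the narrow range restates how evenly those names were spread. These groupings were chosen after seeing the data. In the adult libraries, which had no CPN, ExNeuron and LayerIV together made up 83.1% ± 11.8 of pyramidal neurons (SD, n = 5), against 24.8% ± 6.16 in newborn libraries, and 55.3% ± 2.39 in newborn libraries with CPN included. The age differences were 58.4 and 27.9 points, given with no test because the groupings came from these data. CthPN was the only other pyramidal name in adult libraries, so the adult combined share was all that CthPN left.

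Other names moved with the newborn split too. OPC, the precursors of myelin-forming cells, had 242 and 229 cells in newborn libraries 1 and 2, against 169, 144 and 163 in libraries 3 to 5. COP, the committed precursors of the same lineage, had 16 and 7 cells in libraries 1 and 2, against 47, 53 and 52. Interneurons named by NPY had 100 and 85 cells in libraries 1 and 2, against 46, 40 and 59. Astrocytes were near even, with 247, 257, 246, 260 and 250 cells. The part of these differences between libraries in the ExNeuron result was not tested.

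In the adult cortex, ExNeuron and LayerIV were found side by side. The Y8 libraries had 1.05, 1.5 and 1.0 ExNeuron cells per LayerIV cell. The Y7 libraries had ratios of 3.65 and 3.24. The Y7 libraries were also richer in CthPN, with 32.8% and 22.1% of pyramidal neurons, against 4.65%, 18.9% and 5.88% in Y8. The ExNeuron share of pyramidal neurons itself differed by -7.97 points between Y8 and Y7 (Y8 minus Y7, p = 0.2, exact permutation test, 3 against 2 libraries), the smallest p this design allows. The difference was -11.4 points without Y7 library 1 and -4.55 points without Y7 library 2. The Y7 libraries gave 216 of the 271 adult ExNeuron cells (79.7%), so values pooled over adult cells are mostly Y7 values.

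Reads per cell set how much of a cell's open chromatin could be seen. The median ExNeuron cell had 5857, 9942.5 and 8450 reads in Y8 libraries 1 to 3 and 4900 and 4302 reads in the Y7 libraries. It had 9414.5 and 9723 reads in newborn libraries 1 and 2, and the single cell of library 4 had 9578 reads. The Y7 cells were the shallowest, and Y8 library 2 lay above both newborn libraries.

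Over the 7 libraries with at least 10 ExNeuron cells, median reads averaged 6690.3 ± 2412 in adult (SD, n = 5) and 9569 ± 218 in newborn libraries (n = 2). This was a log2 difference of -0.59, or 0.664-fold (adjusted p = 0.381, exact permutation test, 5 against 2 libraries), and the smallest p this design allows is 0.0952. The size of the difference depended on the adults and on the summary: it was -1.06 with only Y7 adults, -0.28 with only Y8 adults and -0.26 with library means in place of medians. Single cells covered nearly the whole permitted range at both ages, with 1000 to 14876 reads in adult and 1039 to 14975 reads in newborn ExNeuron cells. Cells under 3000 reads made up 35.6% and 38.3% of ExNeuron cells in the Y7 libraries and 23.8%, 11.1% and 25% in the Y8 libraries, against 16.7% and 14.9% in newborn libraries 1 and 2.

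Peaks followed reads closely. The median ExNeuron cell had 3324, 5314.5 and 4406 peaks in Y8, and 2877 and 2406 peaks in Y7, against 4558.5 and 4712.5 peaks in newborn libraries 1 and 2. The log2 difference between ages was -0.40, or 0.759-fold (adjusted p = 0.381, exact permutation test, 5 against 2 libraries). It was -0.82 with only Y7 adults, -0.12 with only Y8 adults, -0.13 with library means and -0.26 without Y7 library 2. The adult and newborn ranges overlapped.

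Compared with the other pyramidal cells of their own library, ExNeuron cells were shallower in most adult libraries and deeper in both newborn ones. The other pyramidal cells had median reads of 10695, 10225 and 7694 in Y8 and 7653 and 5877 in Y7, against 6602 and 7123 in newborn libraries 1 and 2. They were not the same names at both ages. In adults they were LayerIV and CthPN only. CPN and ScPN gave 130 and 185 of the 409 cells in newborn library 1, and 126 and 189 of the 411 in library 2. The part of this change of names in the age contrast was not tested. The log2 ratio of ExNeuron to other pyramidal median reads was -0.87, -0.04 and 0.14 in Y8 and -0.64 and -0.45 in Y7, against 0.51 and 0.45 in newborn libraries. Its mean was -0.37 (0.772-fold) in adult and 0.48 (1.40-fold) in newborn libraries, -0.85 apart (adjusted p = 0.127 in the exact permutation test, 5 against 2 libraries). Every adult ratio lay below both newborn ratios, and the unadjusted p of the exact permutation test, 0.0952, was the smallest it could give. Over all 7 libraries the mean log2 ratio was -0.13 (adjusted p = 0.682, exact sign-flip permutation test). Leaving out 1 library moved it between -0.24 (without newborn library 1) and -0.0063 (without Y8 library 1), it was -0.030 with library means, and leaving out newborn library 2 or either Y7 library also moved it by over 1.5 times.

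**Figure D2:**
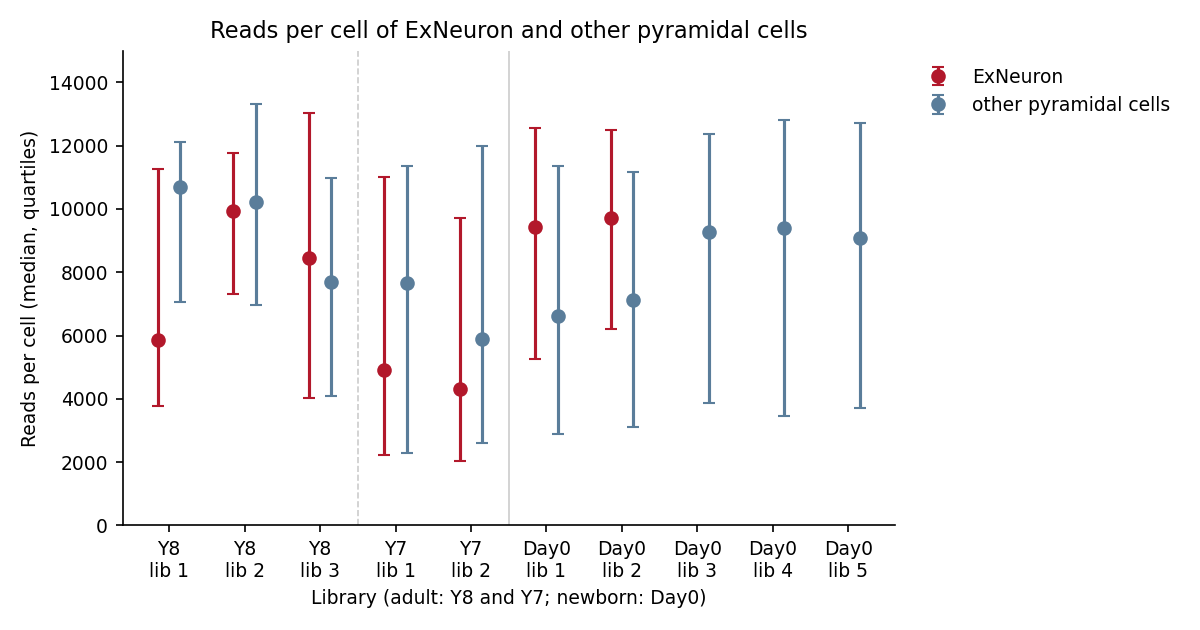
Points give median reads per cell, with bars from the lower to the upper quartile, for ExNeuron cells and for the other pyramidal cells of each library, adult libraries (Y8, Y7) left of newborn libraries (Day0); libraries with fewer than 10 ExNeuron cells show no ExNeuron point. ExNeuron medians lie at 9414.5 and 9723 reads in newborn libraries 1 and 2, above the other pyramidal medians of 6602 and 7123, and lie below the other pyramidal medians in 4 of 5 adult libraries.

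Against LayerIV, the neighbour they could be set beside in all 5 adult libraries, ExNeuron cells had fewer median reads in 4 of 5. LayerIV medians were 10015, 10024 and 7694 reads in Y8 and 5320 and 5877 reads in Y7. The mean log2 ratio of ExNeuron to LayerIV reads was -0.24, or 0.844-fold, and ran from -0.77 to 0.14 (adjusted p = 0.682, exact sign-flip permutation test, n = 5, smallest p 0.0625). For peaks per read the ratio was 1.00-fold (adjusted p = 0.875, exact sign-flip permutation test, n = 5). No newborn library had 10 cells of both names.

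CthPN could be compared in both Y7 libraries and in newborn libraries 1 and 2. In Y7, ExNeuron medians of 4900 and 4302 reads stood beside CthPN medians of 8236 and 6123.5. In newborn libraries, ExNeuron medians of 9414.5 and 9723 reads stood beside CthPN medians of 8292.5 and 7526.5. ExNeuron cells were the shallower cells in Y7, at 0.647-fold, and the deeper cells in newborns, at 1.21-fold, and the mean log2 ratio over the 4 libraries was -0.18 (adjusted p = 0.682, exact sign-flip permutation test, smallest p 0.125).

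CPN and ScPN shared libraries with ExNeuron only in newborns. In libraries 1 and 2 the CPN medians were 5811.5 and 5394 reads and the ScPN medians 6968 and 7867 reads, all below the ExNeuron medians. In libraries 3 to 5, which had almost no ExNeuron cells, the CPN medians were 9216, 10003 and 8186 reads. The ScPN medians there were 9643, 8637 and 9346 reads, and the CthPN medians 10906, 9717 and 10210.5 reads. CPN, ScPN and CthPN thus all had fewer median reads in libraries 1 and 2 than in libraries 3 to 5. The median over all cells was also lower, at 6092 and 6094 reads in libraries 1 and 2 against 6922.5, 7063 and 7145.5 reads. No test was made of this pattern.

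The share of pyramidal neurons that was called ExNeuron moved with depth inside the newborn libraries. With the pyramidal cells of a library ranked by reads and put into 4 equal bins, shallowest to deepest, it was 19.3%, 23.6%, 37.5% and 36.1% in newborn library 1 and 21.3%, 30.7%, 31.5% and 42.0% in library 2. The CPN share over the same bins was 26.9%, 29.9%, 20.8% and 12.5% in library 1 and 27.3%, 25.3%, 22.8% and 8.67% in library 2. The deepest bin thus had more ExNeuron and fewer CPN cells than the shallowest in both.

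In both Y7 libraries the deepest bin had a lower ExNeuron share than the shallowest, but the fall was steady only in Y7 library 2. The ExNeuron share over the bins was 54.7%, 62.5%, 43.8% and 50.0% in Y7 library 1 and 70.6%, 61.8%, 55.9% and 50.0% in Y7 library 2. The Y8 libraries had 8 to 11 cells in a bin and no common order. With each library divided at its median reads, the deeper cells had a share that differed from the shallower by -16.2, -2.63 and 0 points in Y8 and -11.7 and -13.2 points in Y7, against 15.2 and 10.6 points in newborn libraries. The mean over the 7 libraries was -2.58 points (p = 0.531, exact sign-flip permutation test), with values of 0 or below in adult and above 0 in newborn libraries; that contrast was not tested. The mean moved between -5.54 points without newborn library 1 and -0.31 points without Y8 library 1, and was -4.78 without newborn library 2, -1.06 without Y7 library 1 and -0.81 without Y7 library 2.

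**Figure D3:**
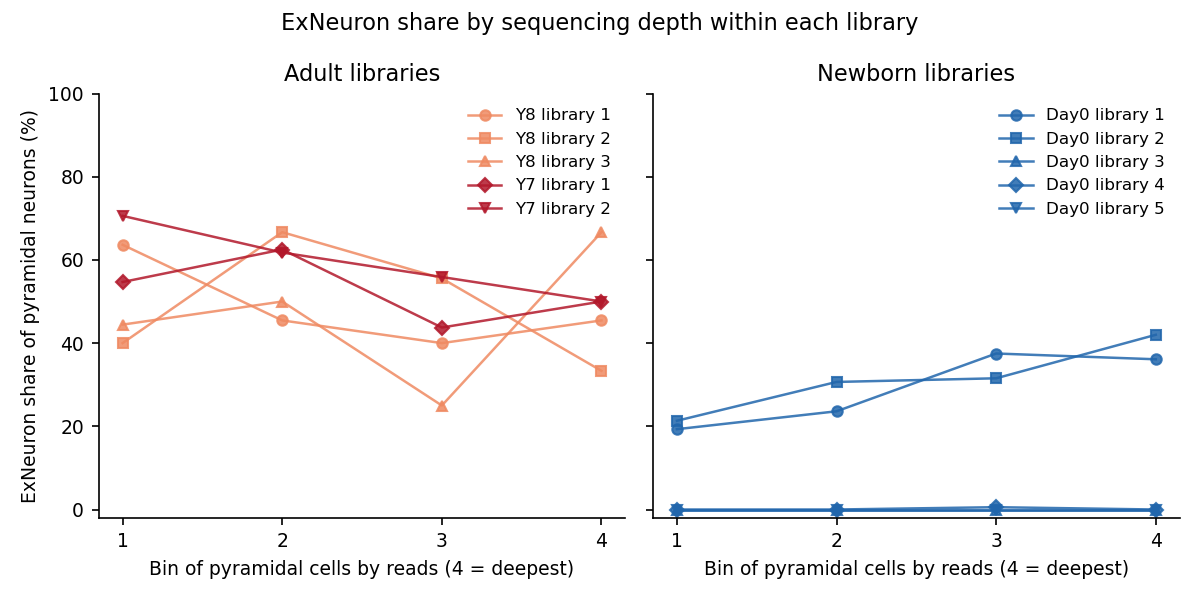
Lines give the ExNeuron share of pyramidal neurons in each of 4 equal bins of a library's pyramidal cells ranked by reads, from shallowest (1) to deepest (4), with adult libraries in the left panel and newborn libraries in the right. The share goes from 19.3% to 36.1% and from 21.3% to 42.0% across the bins of newborn libraries 1 and 2, stays under 1% in newborn libraries 3 to 5, and goes from 70.6% to 50.0% in Y7 library 2.

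Peaks per read, the yield of open regions for a given depth, was 0.536, 0.530 and 0.524 in Y8 ExNeuron cells and 0.564 and 0.559 in Y7, against 0.486 and 0.496 in newborn libraries 1 and 2. Every adult library lay above both newborn ones. The means were 0.543 ± 0.0179 in adult (SD, n = 5) and 0.491 ± 0.00714 in newborn libraries (n = 2), a 1.104-fold difference (adjusted p = 0.286, exact permutation test, smallest p 0.0952). Within each age this ratio was lower in the bins of cells with more reads, so the ages were also compared at equal reads.

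At equal reads the order of the ages was the same. In cells of 1000 to 2500 reads, the mean of library medians was 0.578 peaks per read in adult and 0.555 in newborn ExNeuron cells. In cells of 5000 to 10000 reads it was 0.539 in adult and 0.494 in newborn cells, and in those of 10000 to 15000 reads 0.523 and 0.481. A line through log2 peaks against log2 reads in each library gave the peaks of a cell with 5000 reads: 2725, 2703.5 and 2757 in Y8 and 2790.2 and 2762 in Y7, against 2525 and 2604 in newborn libraries. The mean was 2747 ± 33.8 in adult and 2564 ± 56.1 in newborn libraries, a log2 difference of 0.10 (p = 0.0952, exact permutation test, 5 against 2 libraries, the smallest it allows), in a measure added after seeing the data.

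The same gap was present in the other pyramidal cells of these libraries, whose names differed between the ages. At 5000 reads they had 2727, 2717 and 2766 peaks in Y8 and 2795 and 2758 in Y7, against 2531 and 2610.2 in newborn libraries 1 and 2. In newborn libraries 3 to 5, where ExNeuron was all but absent, the other pyramidal cells had 2731, 2707 and 2718 peaks, within the adult range or just under it. Libraries 1 and 2 therefore stood apart from libraries 3 to 5 in peaks at equal reads, and for ExNeuron cells the age of newborns cannot be told apart from these 2 libraries.

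**Figure D4:**
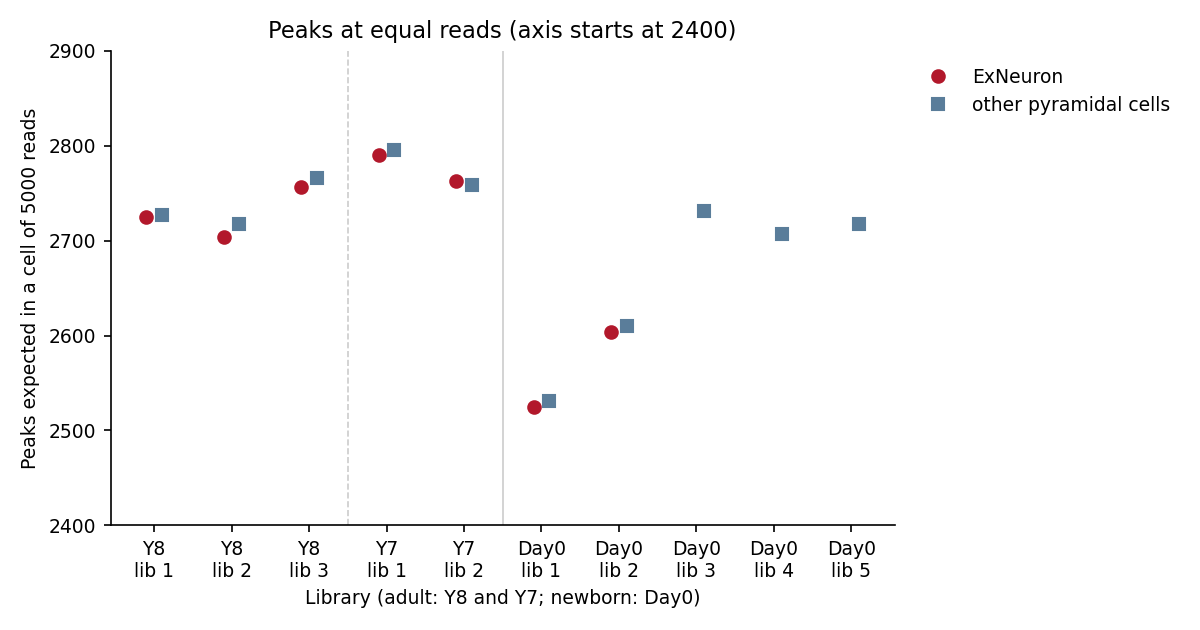
Points give the peaks expected in a cell of 5000 reads, from a line fitted in each library, for ExNeuron cells and for the other pyramidal cells, adult libraries (Y8, Y7) left of newborn libraries (Day0); the axis does not start at 0. ExNeuron lies at 2703.5 to 2790.2 in adult libraries and at 2525 and 2604 in newborn libraries 1 and 2, and in the 7 libraries with both points these lie close together.

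Within a library, ExNeuron cells had nearly the same number of peaks as other pyramidal cells of equal depth. The median departure of ExNeuron from the line of the other pyramidal cells, less the median departure of those cells, was below 0 in 7 of 7 libraries. Its mean was only 0.993-fold (p = 0.0156, the smallest this design allows, adjusted p = 0.188 over 12 comparisons, exact sign-flip permutation test). The log2 value was -5.6e-05 in Y7 library 1, and -0.0021 and -0.0029 in Y8 libraries 2 and 3. The count of 7 of 7 thus rests on values very near 0. The mean was 0.996-fold in adult and 0.986-fold in newborn libraries. The newborn names lay on both sides of ExNeuron, which had 2525 and 2604 peaks at 5000 reads in libraries 1 and 2. CPN had 2432 and 2543 there, below ExNeuron, while ScPN had 2583 and 2643 and CthPN 2577 and 2648, above it. CPN and ScPN were not tested alone. The mean log2 departure, -0.010, shrank to -0.0045 with library means and to -0.0020 with cells compared in bins of reads (unadjusted p = 0.781, exact sign-flip permutation test), so it depended on how reads were matched. Against CthPN alone the mean was 0.988-fold, below 1 in 4 of 4 libraries, and against LayerIV it was 0.997-fold, below 1 in 3 of 5 (adjusted p = 0.682 each, exact sign-flip permutation test). None of the 12 comparisons between ExNeuron and its neighbours passed the adjusted threshold of 0.05.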

How the data were processed

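Per the study's methods, the authors aligned marmoset reads to the CalJac3 genome with Bowtie2, removed mitochondrial, unpaired, low-quality and duplicate reads, sampled libraries to a similar depth per cell, called peaks with MACS2 within Scasat and set them to 1 width. Cells were kept within limits on reads and peaks, clustered by accessibility, and named from inferred activity of marker genes. For doublets, the treatment was not stated in the methods or labels. The deposited values were counts per cell of reads and of peaks, without normalization.

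Cells were counted per library, and each library weighed equally. Library shares and log2 library medians were compared between ages by exact two-sided permutation tests, and names within a library by exact sign-flip tests, with Benjamini-Hochberg adjustment within 4 shares, 3 levels, 12 paired and 4 gap values. Levels needed at least 10 cells. Libraries that agreed in cell types were kept as separate samples, as labelled, with nothing stated on whether they share an animal, and averaging them was an alternative. Members and tests were chosen with earlier results of these data known. Scripts used Python 3.11.15, scipy 1.17.1 and pandas 2.3.3, and were tested on simulated data. Mouse cells were only counted.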

Additional observations from a re-analysis of the deposited data

Results flagged for a closer look

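The direction of the ExNeuron difference from CthPN was opposite at the 2 ages in the 4 libraries compared, which is why 3 values are given here; the difference between ages was not tested. For median reads, the log2 ratio was negative in both Y7 libraries and positive in newborn libraries 1 and 2, an adult minus newborn difference of -0.91. For median peaks the difference was -0.78, with the same signs. For peaks per read the ratios were positive in Y7 and negative in newborn libraries, a difference of 0.066. No single library stood far from the rest of its age in the 20 sets of libraries examined. Sets of 3 or fewer were not examined. The check looks for 1 outlying value, so it could not flag newborn libraries 1 and 2, which stood apart together.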

How the results depend on the processing

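Of the alternative values, 270 were classed as the same, 15 changed sign, 8 no longer passed the threshold and 1 was classed as newly passing it. That 1 was the share of names used at both ages without the newborn libraries that held nearly all newborn ExNeuron cells. This alternative was chosen after seeing the data and is a description, so it is no test result. Values classed as the same had an equal direction and side of the threshold. Values with no p-value were classed by direction or, for shares, by closeness to the main value. Most of the 270 belonged to results that had not passed the threshold in the main setting. The adult minus newborn difference in the ExNeuron share of pyramidal neurons and of neurons kept its direction in all alternatives, but no longer passed the adjusted threshold with only Y7 adults (44.0 and 27.0 points), only Y8 adults (36.1 and 14.8 points), or agreeing libraries averaged (38.3 and 21.4 points, chosen after seeing the data); each of these designs has fewer units. With the replicate number as a block, the differences were 30.5 and 14.3 points (adjusted p = 0.222 each, exact permutation test). The numbers showed no steady pairing: over a few cell types present at both ages, 3 of 7 same-numbered pairs had correlated deviations over 0.1. Leaving out 1 library gave 36.2 to 44.1 and 17.3 to 22.3 points. All were past the threshold, but this was fixed in advance, since every adult library lay above every newborn library in both shares.

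The share of annotated cells changed sign with cells of at least the median reads (0.968 points), at least the median peaks (1.15), only Y7 adults (3.08) or, by a choice made after seeing the data, without newborn libraries 1 and 2 (3.69), and ran from -1.86 to 1.09 when 1 library was left out, turning without newborn library 1 (0.789) or 2 (1.09). The share of names used at both ages differed by 51.2 points without newborn libraries 1 and 2, which hold nearly all newborn ExNeuron cells, so this is a description and no test, and by 7.21 points with the replicate block. The deeper minus shallower share turned to 0.855 points between the deepest and shallowest of 4 equal bins of reads.

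On the log2 scale, peaks per read against other pyramidal cells turned to 0.00025 in adults only, those against CthPN to 0.017 in adults only, and peaks at matched reads against LayerIV to 0.0070 with at least 30 cells, the value of Y7 library 1 alone. With 1 library left out, peaks per read ran from -0.0084 to 0.014 against LayerIV, turning without Y8 library 1 (-0.0084), Y8 library 2 (-0.00091) or Y7 library 1 (-0.00061), and from -0.029 to 0.0026 against CthPN, turning without newborn library 2. Reads against CthPN ran from -0.36 to 0.014, turning without Y7 library 1. None of these had passed a test, and the cause was not tested. The Y8 libraries had only 16 to 21 ExNeuron cells each, and only 2 newborn libraries had enough ExNeuron cells for the age tests of levels.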
